A study of Canis lupus familiaris with 7 samples.

Results

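The genes described here are the canine components of Wnt signalling in bone tissue with and without osteosarcoma (OSA). They were taken by symbol from an expression table of 24580 genes: every WNT, FZD, DKK, SFRP and RSPO gene with a number, and *FRZB*, *WIF1*, *SOST*, *LRP5*, *LRP6*, *ROR1*, *ROR2*, *CTNNB1*, *AXIN1*, *AXIN2*, *NKD1*, *NKD2*, *NOTUM*, *LEF1*, *TCF7*, *TCF7L1* and *TCF7L2*, which gave 57 genes. By role they are 18 ligands, 4 agonists, 14 receptors, 12 secreted antagonists, 5 cytoplasmic or feedback genes and 4 transcription factors. *APC*, the remaining symbol of the rule, is not analysed here.

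Wnt proteins are secreted ligands that bind Frizzled (FZD) receptors together with the co-receptors *LRP5* and *LRP6*. Binding stops the destruction complex from degrading β-catenin, which then enters the nucleus and works with *LEF1* and the TCF factors to switch on target genes, while *ROR1* and *ROR2* carry signals that do not need β-catenin. In bone the β-catenin branch drives osteoblast formation, and it is restrained outside the cell by antagonists such as sclerostin (*SOST*), the Dickkopf proteins (DKK), the secreted Frizzled-related proteins (SFRP, *FRZB*) and *WIF1*.

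RNA came from dog tissue of 2 kinds. The 4 non-tumor samples (N1, N3, N8 and N9) were grossly non-malignant bone taken next to a tumor. The 3 OSA tumor samples (T1, T3 and T10) were osteosarcoma diagnosed by histopathology. The labels used here name no treatment of a sample or dog and give no age, sex or breed. Numbers 1 and 3 occur in both groups, but the labels do not say that a number marks a dog, so p-values measure only the spread between these samples. Each value is an FPKM, the fragments assigned to a gene, scaled by its length in kilobases and by the fragments sequenced, and no fragment counts were used, so the absolute depth of a sample is unknown; relative to N1 the depth read from the smallest FPKM steps ran from 0.545 in N8 to 1.44 in T10. An exact 0 need not mean absence, since the muscle gene *CKM* is listed at 0 in N9, where the muscle gene *MB* stood at 10049 FPKM, and such values are given below as listed at 0.

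The samples did not divide cleanly by label. Over the 13507 genes that averaged 1 FPKM or more, Pearson's r of log2(FPKM + 1) across genes was 0.917 between N1 and T1, against 0.670, 0.575 and 0.572 between N1 and the other non-tumor samples; genes are not independent replicates, and these are descriptions. Whether N1 held tumor tissue or carries the wrong label was not tested and cannot be settled from these values, so each non-tumor mean includes N1 as labelled. N8 and N9 held large amounts of skeletal muscle RNA. The 14 muscle markers measured summed to between 93.6 and 97090 FPKM in non-tumor samples, highest in N8 and N9, and to between 10.4 and 32.5 FPKM in tumors. Results are therefore also given without N1, and without N8 and N9 together where a call changes.

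Of the 57 genes, 42 averaged 1 FPKM or more and were tested with limma on log2(FPKM + 1); the other 15 were 11 ligands, *RSPO1*, *RSPO2*, *RSPO4* and *DKK4*. The 5 members *DKK3*, *WIF1*, *SFRP2*, *NKD1* and *CTNNB1* were higher in OSA tumor at a fold change of at least 2 and an unadjusted p below 0.05, and no member was lower. These 5 are 11.9% of the 42, set against 6.86% of all genes called in either direction and 3.28% called higher. Of the 5, 3 are grouped here by symbol as secreted antagonists, 1 is a feedback inhibitor and 1 encodes β-catenin itself. *DKK3*, in the first group, is not known as a strong *LRP6* ligand. The smallest Benjamini-Hochberg adjusted p (limma) over all 13507 genes was 0.693, so 0.0% of genes and 0 members passed adjustment, while 927 genes had an unadjusted p below 0.05.

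Fold changes of the members lay mostly above zero. Of the 42 tested, 31 (73.8%) had a positive log2 fold change, tumor minus non-tumor, with a median of 0.70, whereas 48.6% of all genes tested were positive with a median of -0.02. N1 was the highest non-tumor sample for 22 of the 42 members (52.4%), against 31.2% of all genes. Without N1, 10 of 42 members were called, all higher, against 14.8% of all genes; the 5 that joined were *FZD1*, *NOTUM*, *ROR1*, *ROR2* and *TCF7L1*. Without N8 and N9, 2 of 42 were called, *DKK3* higher and *SFRP5* lower, against 1.36% of all genes. The members with a positive log2 fold change numbered 30 without N1, 28 without N8 and N9 and 26 without T1. The median log2 fold change of the 42 was 0.27 without T1, 0.47 without N8, 0.38 without N8 and N9 and 1.13 without T10. Among the tumors, leaving out T1 brought in *FZD6* and *FZD10* higher and *AXIN1* lower, leaving out T3 brought in *FZD1* and *NOTUM*, and leaving out T10 brought in *FZD2* and *LEF1*. With each sample rescaled to the same FPKM sum, 5 members were again called higher, *NOTUM* in place of *CTNNB1*. That scaling moved the median log2 fold change of all genes by 0.15. Calls over all genes changed from 443 higher and 483 lower to 276 higher and 499 lower. The largest single gene held 47.3% of the FPKM sum in T1 and 5.10% to 15.2% in the other samples, which lowers the other genes of T1 under that scaling.

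**Figure D1:**
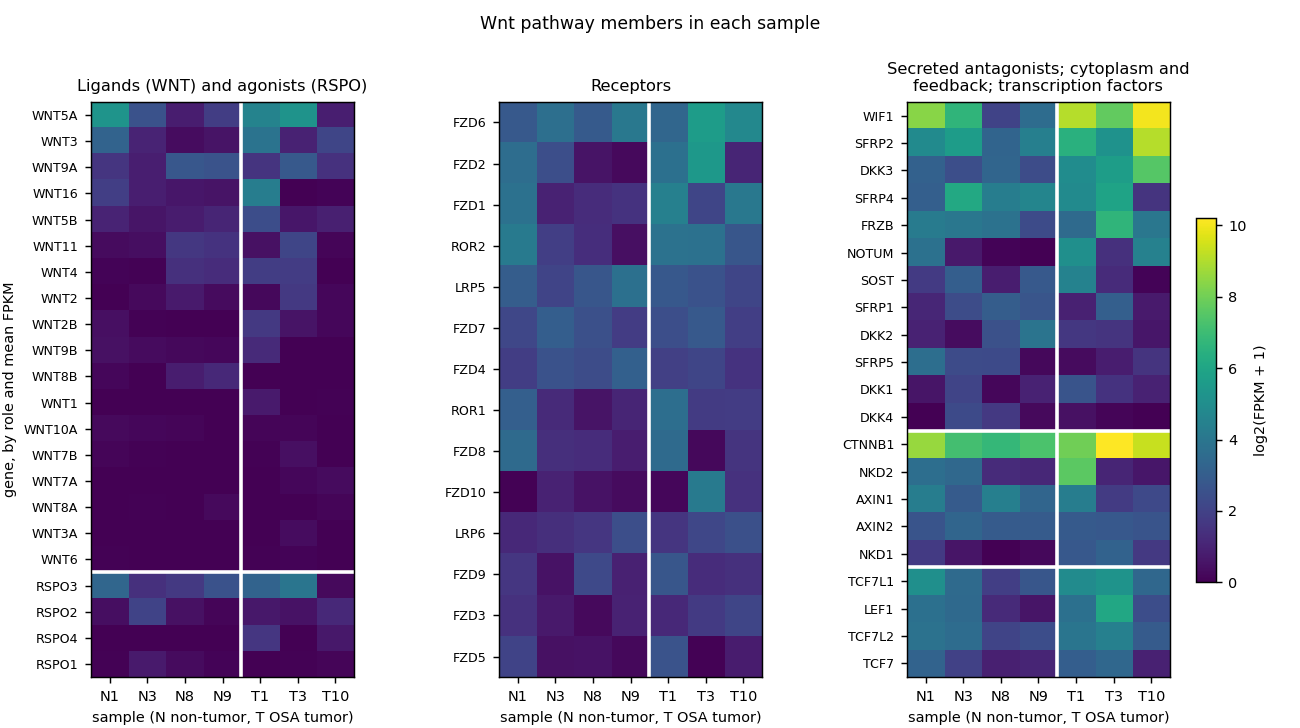
Colour gives log2(FPKM + 1) of each of the 57 members (rows, ordered by role and mean level) in each of the 7 samples (columns); white lines part non-tumor from OSA tumor samples and one role from another. *WIF1*, *SFRP2* and *CTNNB1* are the brightest rows, most WNT rows are dark throughout, and N1 resembles T1 more than N8 or N9.

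**Figure D2:**
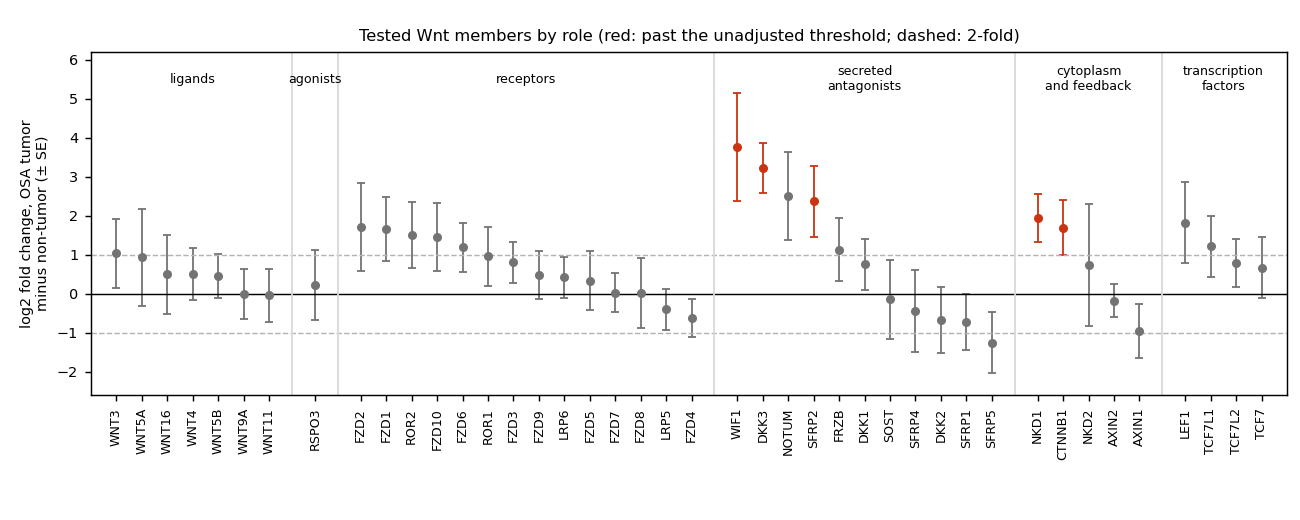
Points give the log2 fold change on the log2(FPKM + 1) scale, OSA tumor minus non-tumor, of the 42 tested members with the limma standard error as bars, grouped by role; red marks the 5 members past the unadjusted threshold and dashed lines a fold change of 2. The 3 red points among the secreted antagonists stand beside 5 antagonists below zero.

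Ligand RNA was mostly low. Of 18 WNT genes, 7 were tested and none was called; their log2 fold changes ran from -0.04 to 1.04. *WNT5A*, which mainly signals without β-catenin, had the highest mean, with 37.8, 4.93, 0.750 and 2.57 FPKM in N1, N3, N8 and N9 and 22.8, 36.9 and 0.8195 FPKM in T1, T3 and T10. Every tumor lay inside the non-tumor range, with T10 beside N8 (log2 fold change 0.94, SE 1.24). Without N8 and N9 the log2 fold change of *WNT5A* was -0.36. *WNT3*, a ligand of the β-catenin branch, stood at 8.58, 1.02, 0.276 and 0.452 FPKM in N1, N3, N8 and N9 and at 13.8, 0.944 and 3.43 FPKM in T1, T3 and T10, so that T1 and N1 were its high samples (log2 fold change 1.04, SE 0.89). *WNT16* reached 18.8 FPKM in T1 and at most 2.66 FPKM elsewhere. The 11 untested ligands, *WNT1*, *WNT2*, *WNT2B*, *WNT3A*, *WNT6*, *WNT7A*, *WNT7B*, *WNT8A*, *WNT8B*, *WNT9B* and *WNT10A*, did not exceed 2.21 FPKM in any sample.

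Which ligand led depended on the sample. *WNT5A* held 70.7% of the summed WNT FPKM in N1, 54.3% in N3, 33.0% in T1 and 68.2% in T3. In N8 and N9 the leading ligand was *WNT9A*, with 42.8% and 34.4%, and in T10 it was *WNT3*, with 44.5%. The sum itself was 53.5, 9.08, 13.6 and 14.7 FPKM in N1, N3, N8 and N9 and 69.0, 54.1 and 7.71 FPKM in T1, T3 and T10. T10 was the lowest on this scale, but with each sample rescaled to a total of 1000000 FPKM its sum was 13.2, above N8 at 7.78 and N9 at 11.2. Some WNT genes lie next to each other on the CanFam3.1 build. *WNT3A* (chromosome 14 from 862354 to 895412) and *WNT9A* (chromosome 14 from 953396 to 959328) are 57984 bases apart; *WNT9A* was measured in all 7 samples at 0.801 to 6.21 FPKM, while *WNT3A* did not exceed 0.277 FPKM. *WNT3* (chromosome 9 from 10081637 to 10086581) and *WNT9B* (chromosome 9 from 10149842 to 10172753) are 63261 bases apart, and *WNT9B* stayed at or below 1.35 FPKM.

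R-spondins, the agonists that keep Frizzled receptors on the cell surface, were represented by *RSPO3*. It stood at 9.29, 1.69, 2.20 and 4.89 FPKM in N1, N3, N8 and N9 and at 8.44, 14.4 and 0.2004 FPKM in T1, T3 and T10. Its lowest and its highest value were both in tumors, and its log2 fold change was 0.23 (SE 0.89). *RSPO2* peaked in N3 at 3.199 FPKM and was between 0.110 and 1.24 FPKM elsewhere. *RSPO4* was listed at 0 in all non-tumor samples and in T3 and stood at 2.06 FPKM in T1 and 0.563 FPKM in T10.

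All 14 receptor genes were tested. None was called, and 12 of them had positive log2 fold changes, with a median of 0.65 over the 14. *FZD6*, which held the largest share of Frizzled RNA in N3, N8, N9, T3 and T10, stood at 6.202, 12.3, 6.48 and 15.7 FPKM in N1, N3, N8 and N9 and at 9.20, 48.7 and 25.7 FPKM in T1, T3 and T10. T3 and T10 exceeded every non-tumor sample and T1 did not (log2 fold change 1.19, SE 0.62, limma p = 0.0881, exact permutation p = 0.171). *FZD1*, the leading Frizzled in N1 and T1, stood at 13.1, 0.941, 1.46 and 1.78 FPKM in N1, N3, N8 and N9 and at 20.5, 3.39 and 15.9 FPKM in T1, T3 and T10. All 3 tumors lay above N3, N8 and N9, and N1 lay above T3 (log2 fold change 1.66, SE 0.82, limma p = 0.0733, exact permutation p = 0.114). *FZD2* was led by T3 at 42.5 FPKM, with 12.5 FPKM in T1 and 1.103 FPKM in T10, and N1, N3, N8 and N9 stood at 11.5, 4.40, 0.434 and 0.207 FPKM (log2 fold change 1.71, SE 1.12).

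The other receptors included some that were high in 1 or 2 samples. *FZD10* reached 17.0 FPKM in T3, 1.72 in T10 and under 1 FPKM in T1 and the 4 non-tumor samples. *ROR2*, a receptor for *WNT5A*, stood at 17.2, 2.76, 1.53 and 0.318 FPKM in N1, N3, N8 and N9 and at 13.3, 13.0 and 5.68 FPKM in T1, T3 and T10; N1 was above every tumor, and without N1 *ROR2* was called at a log2 fold change of 2.25. The co-receptor *LRP5* had a log2 fold change of -0.40 (SE 0.52, 95% limits -1.57 to 0.78) and *LRP6* one of 0.42 (SE 0.52, 95% limits -0.75 to 1.59), with 3.26 to 12.7 FPKM and 1.28 to 4.64 FPKM over the 7 samples. The loci given for *LRP5* and *FZD8* cover 3 genes each, that for *RSPO1* covers 11, and those for *LRP6*, *FZD5*, *ROR1*, *DKK1* and *SFRP5* cover 2 each.

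Shares of the RNA of a family do not depend on the scaling between samples. Of 36 such shares in the WNT, FZD, SFRP and DKK families, 4 did not overlap between groups, *WNT1* and *WNT2B* with larger and *FZD4* and *FZD7* with smaller shares in tumors; they were picked out after their values were seen. By FPKM, a different measure, 3.04% of the genes averaging 1 FPKM or more lay wholly higher in tumor and 2.81% wholly lower. *WNT1* and *WNT2B* averaged less than 1 FPKM. The FPKM of *WNT2B* overlapped between groups, with 0.330 in N1 and 0.132 in T10. *WNT1* was listed at 0 in all 4 non-tumor samples and stood at 0.671, 0.0212 and 0.0364 FPKM in T1, T3 and T10. *FZD4*, a receptor with a known role in blood vessels, held 4.85%, 14.6%, 17.7% and 25.1% of the FZD sum in N1, N3, N8 and N9 and 3.94%, 2.68% and 3.25% in T1, T3 and T10. *FZD7* held 6.52%, 21.3%, 19.6% and 7.95% against 6.27%, 4.96% and 4.74%. N1 lay next to the tumors for both genes, and these shares were examined without a test. The FPKM of both genes overlapped between groups, with log2 fold changes of -0.62 for *FZD4* and 0.03 for *FZD7*. Of 9 endothelial markers tested, 4 were called lower in tumor, where 483 of all 13507 genes tested were called lower. The sum of the list was 97.0 to 375 FPKM in non-tumor samples and 25.0 to 126 FPKM in tumors. None of these markers was at 0 throughout, and their part in the share of *FZD4* was not tested.

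**Figure D3:**
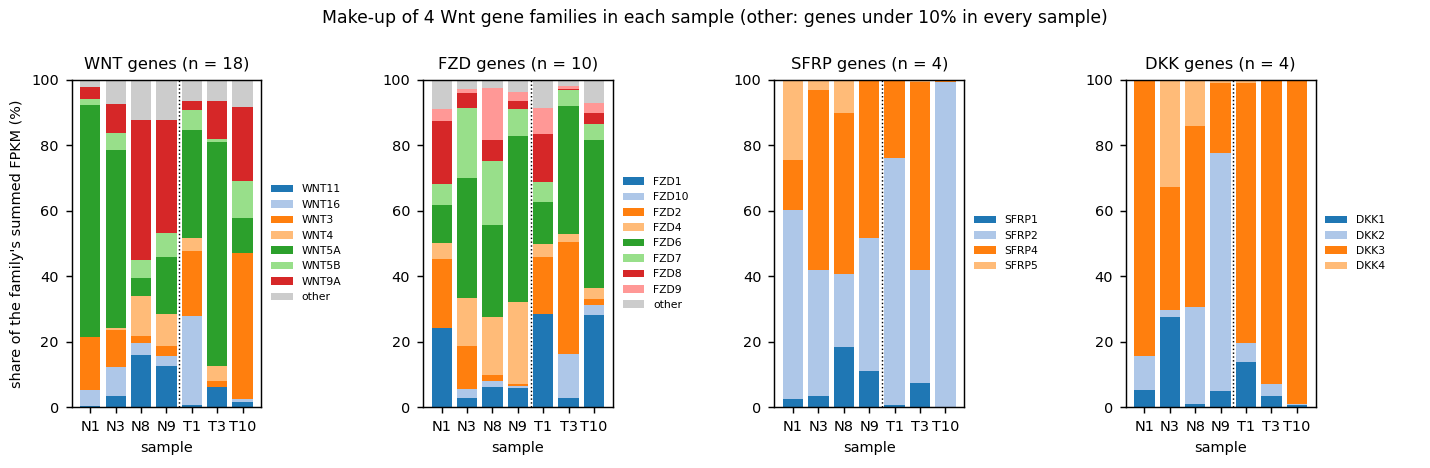
Stacked bars give the percentage of the summed FPKM of the WNT, FZD, SFRP and DKK genes held by each gene in each sample, with non-tumor samples left of the dotted line and OSA tumors right of it. *DKK3* fills 79.4% to 99.2% of the DKK bar in tumors, and the leading WNT gene differs between samples.

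Among the secreted antagonists, 3 of 11 tested genes were called, all higher in tumor, and 5 had negative log2 fold changes. *DKK3* encodes the Dickkopf protein that, unlike *DKK1*, is not known as a strong *LRP6* ligand. It averaged 6.37 ± 2.40 FPKM (SD, n = 4) without tumor (7.85, 4.53, 8.96 and 4.14 in N1, N3, N8 and N9) and 87.0 ± 82.0 FPKM (SD, n = 3) in tumors, where T1 had 30.4, T3 49.6 and T10 181. *DKK3* was the 1 tested member whose groups did not overlap, against the 3.04% of all genes lying wholly higher in tumor. Its log2 fold change was 3.22 (SE 0.64, p = 0.000631, adjusted p = 0.693, limma), and a two-sided exact permutation test over 35 arrangements gave 0.0571, the smallest p this design allows. *DKK3* was called in each of the 7 fits that left out 1 sample and without N8 and N9, with log2 fold changes between 2.49 and 3.76.

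The other DKK genes were not called. *DKK1*, the classical antagonist that binds *LRP6*, stood at 0.487, 3.29, 0.138 and 0.982 FPKM in N1, N3, N8 and N9 and at 5.31, 1.85 and 0.966 FPKM in T1, T3 and T10 (log2 fold change 0.75, SE 0.65). *DKK2* had its 2 highest values in N9 at 14.1 FPKM and N8 at 4.79 FPKM and ranged from 0.543 to 2.17 FPKM in tumors (log2 fold change -0.67, SE 0.85). *DKK4* reached 3.91 FPKM in N3 and was at most 0.388 FPKM in tumors. Accordingly *DKK3* made up 84.4%, 37.8%, 55.4% and 21.3% of the DKK sum in N1, N3, N8 and N9 and 79.4%, 92.9% and 99.2% in T1, T3 and T10.

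*WIF1*, which binds Wnt proteins directly, was the antagonist with the highest FPKM. N1 had 332 FPKM, N3 102, N9 11.2 and N8 3.13, while T10 had 1037, T1 534 and T3 213. N1 exceeded T3, and the 2 muscle-rich samples lay far below the rest (log2 fold change 3.76, SE 1.37, limma p = 0.0222, adjusted p = 0.693, exact permutation p = 0.114). The call of *WIF1* was lost without N8, N9, T1 or T10, where its log2 fold change was 2.72, 3.24, 3.70 and 3.22, and without N8 and N9 together, where it was 1.41. *SFRP2* stood at 28.1, 48.7, 8.61 and 20.0 FPKM in N1, N3, N8 and N9 and at 88.7, 35.4 and 533 FPKM in T1, T3 and T10. T3 lay below N3, and T10 alone made up 81.1% of the tumor sum (log2 fold change 2.37, SE 0.91, limma p = 0.0277, adjusted p = 0.693, exact permutation p = 0.114). The call of *SFRP2* was lost without N8, N9, T1 or T10, where its log2 fold change was 1.95, 2.32, 2.58 and 1.30, and without N8 and N9 together, where it was 1.66.

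*NOTUM* encodes an enzyme that inactivates Wnt proteins by removing their lipid. N1 had 13.1 FPKM, N3 0.631 and N8 0.0814, N9 was listed at 0, and T1, T3 and T10 had 32.8, 1.68 and 21.5 FPKM. Its log2 fold change was 2.51 (SE 1.12, limma p = 0.0513, exact permutation p = 0.114), and it was called in 10 of the 19 alternative fits, among them those without N1 and without T3 and those with smaller pseudocounts; the locus of *NOTUM* spans 22 genes. *SOST*, the osteocyte product sclerostin, stood at 2.34, 7.14, 0.746 and 6.17 FPKM in N1, N3, N8 and N9 and at 21.7, 1.42 and 0.0705 FPKM in T1, T3 and T10, so that tumors held both extremes (log2 fold change -0.14, SE 1.02). *FRZB* was led by T3 at 99.9 FPKM, with 10.6 in T1, 15.4 in T10 and 4.08 to 17.7 FPKM in non-tumor samples (log2 fold change 1.13, SE 0.80).

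The remaining SFRP genes did not follow *SFRP2*. *SFRP4* lay between 7.40 and 69.4 FPKM without tumor and stood at 28.0, 58.7 and 1.86 FPKM in T1, T3 and T10 (log2 fold change -0.45, SE 1.05); it led the SFRP sum in N3, N8, N9 and T3, and *SFRP2* led it in N1, T1 and T10. *SFRP1* had a log2 fold change of -0.72 (SE 0.72). *SFRP5* stood at 11.9, 4.02, 3.92 and 0.171 FPKM in N1, N3, N8 and N9 and at 0.224, 0.780 and 1.89 FPKM in T1, T3 and T10; with N9 as the exception, every non-tumor value exceeded every tumor value (log2 fold change -1.25, SE 0.79, 95% limits -3.03 to 0.52). Leaving out N9, or N8 and N9 together, put *SFRP5* past the threshold, lower in tumor, at log2 fold changes of -1.89 and -2.13.

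**Figure D4:**
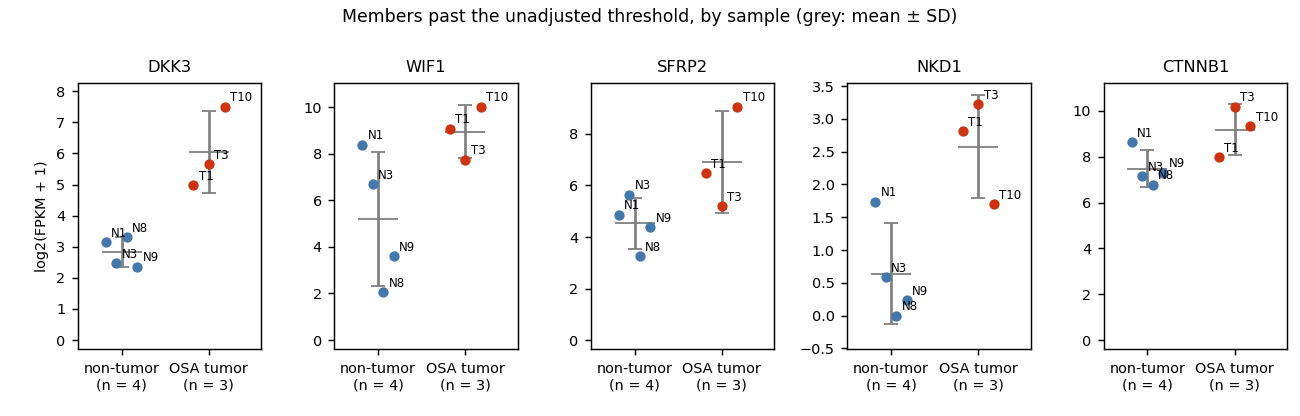
Each dot is 1 sample on the log2(FPKM + 1) scale for the 5 members past the unadjusted threshold, with the grey bar and whiskers at the mean ± SD of the 4 non-tumor and 3 OSA tumor samples. *DKK3* alone has no overlap; N1 is the highest non-tumor dot for *WIF1*, *NKD1* and *CTNNB1*.

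Of 8 chondrocyte markers tested, 3 were called higher in tumor (*SOX9*, *ACAN* and *HAPLN1*) and none lower, where 3.28% of all genes were called higher; *CHAD*, another of the 8, had a log2 fold change of -0.028. The sum of the list was 314, 43.3, 13.3 and 15.3 FPKM in N1, N3, N8 and N9 and 880, 142 and 425 FPKM in T1, T3 and T10, and none was listed at 0 in every sample. Of 14 skeletal muscle markers, 12 were called lower, where 483 of all 13507 genes tested were called lower. Osteoblast markers, 0 of 9 called, summed to 9168, 2000, 275 and 583 FPKM in N1, N3, N8 and N9. In T1, T3 and T10 they summed to 15194, 2186 and 3166 FPKM. The part of these cell types in the results was not tested, and in bulk tissue fewer cells of a type cannot be told apart from less RNA per cell.

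Inside the cell, 2 of 5 genes were called. *CTNNB1*, which encodes β-catenin, was the member with the highest mean and stood at 396, 142, 110 and 158 FPKM in N1, N3, N8 and N9 and at 253, 1167 and 648 FPKM in T1, T3 and T10. T3 and T10 exceeded all non-tumor samples, and T1 lay below N1 (log2 fold change 1.70, SE 0.71, limma p = 0.0391, adjusted p = 0.693, exact permutation p = 0.114). The call of *CTNNB1* was kept without N1 and without T1 and lost without N3, N8, N9, T3 or T10, where its log2 fold change was 1.596, 1.47, 1.65, 1.19 and 1.62. It was also lost without N8 and N9 together (1.28) and with each sample rescaled to the same FPKM sum, where the log2 fold change was 1.90. *NKD1*, a feedback inhibitor that acts on Dishevelled and is itself a Wnt target, stood at 2.34 FPKM in N1, 0.497 in N3 and 0.177 in N9 and was listed at 0 in N8, against 6.01, 8.33 and 2.25 FPKM in T1, T3 and T10. Only N1 overlapped the tumors, lying just above T10 (log2 fold change 1.94, SE 0.62, limma p = 0.0117, adjusted p = 0.693, exact permutation p = 0.114). *NKD1* was called in all 7 fits that left out 1 sample, and not without N8 and N9 together, where its log2 fold change was 1.42.

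The relative of *NKD1* behaved as a single-sample gene. *NKD2* reached 198 FPKM in T1, 99.2% of the tumor sum, and stood at 1.07 FPKM in T3 and 0.549 in T10, below all 4 non-tumor samples, which ran from 1.17 to 11.9 FPKM. Its log2 fold change was 0.73 (SE 1.56) with T1 and -1.54 without it. *AXIN2*, a feedback scaffold widely read as a β-catenin target, varied least of the 42 over the 7 samples (SD 0.23 on the log2(FPKM + 1) scale, against 0.46 for the next, *FZD7*), with 5.24 to 8.95 FPKM in non-tumor samples and 5.21 to 6.31 FPKM in tumors (log2 fold change -0.18, SE 0.43, 95% limits -1.14 to 0.77). *AXIN1*, the scaffold of the destruction complex, stood at 18.8, 6.51, 19.8 and 8.95 FPKM in N1, N3, N8 and N9 and at 18.9, 2.46 and 3.69 FPKM in T1, T3 and T10 (log2 fold change -0.95, SE 0.70).

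All 4 transcription factors had positive log2 fold changes, and none was called. In each of them N1 was the highest non-tumor sample and T3 the highest tumor. *LEF1* stood at 12.6, 10.04, 1.35 and 0.507 FPKM in N1, N3, N8 and N9 and at 12.5, 68.9 and 4.24 FPKM in T1, T3 and T10. T10 lay below N1 and N3 (log2 fold change 1.83, SE 1.04, limma p = 0.111, exact permutation p = 0.286), and without T10 *LEF1* was called at a log2 fold change of 2.68. Without T3, which held 80.5% of the tumor sum of *LEF1*, the log2 fold change was 0.81. *TCF7L1*, mostly a repressor, had the highest mean of the 4, with 32.6, 10.5, 2.69 and 5.58 FPKM in N1, N3, N8 and N9 and 29.5, 36.4 and 9.51 FPKM in T1, T3 and T10 (log2 fold change 1.22, SE 0.79). *TCF7L2* stood at 13.5, 11.3, 3.21 and 4.31 FPKM against 14.7, 21.0 and 6.65 FPKM (log2 fold change 0.80, SE 0.62). Without N8 and N9 the log2 fold changes were 0.48 for *LEF1*, 0.22 for *TCF7L1* and 0.05 for *TCF7L2*.

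The 3 tumors differed among themselves. Among the 42 tested members, T1 was the highest tumor for 18, T3 for 18 and T10 for 6. Summed over the 12 secreted antagonists, FPKM was 755, 472 and 1794 in T1, T3 and T10 and 423, 263, 72.0 and 90.3 in N1, N3, N8 and N9 (*WIF1* and *SFRP2* held 1037 and 533 FPKM of the T10 sum). These sums depend on the scaling between samples. With each sample rescaled to a total of 1000000 FPKM, the antagonist sum was 675, 523 and 3082 in T1, T3 and T10 and 784, 382, 41.1 and 68.9 in N1, N3, N8 and N9, so that N1 lay above T1 and T3. A single gene held 47.3% of the FPKM total in T1 and 11.3% in N1, which lowers the other rescaled values of T1. The order of N1 and T1 on the rescaled values, here and for the receptors, may therefore rest on that gene. The receptor sum was 106, 149 and 72.9 FPKM in T1, T3 and T10 and 87.4, 42.7, 32.9 and 49.6 FPKM in N1, N3, N8 and N9. After the same rescaling it was 94.3, 165 and 125 in the tumors and 162, 62.0, 18.8 and 37.8 in the non-tumor samples, so that N1 lay above T10 alone on the first scale and above T1 and T10 on the second. Among the tumors, T10 combined the highest antagonist sum with the lowest ligand sum, 7.71 FPKM, and T3 had the highest *CTNNB1*, *LEF1*, *FZD2*, *FZD6* and *FRZB*. The number of members at 1 FPKM or more was 41, 37 and 30 in T1, T3 and T10 and 37, 31, 29 and 29 in N1, N3, N8 and N9.

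Beyond the members, 66 further genes of the pathway were in the table, and 7 of the 54 tested were called, all higher in tumor, where 6.86% of all genes were called in either direction and 3.28% higher; the median log2 fold change of the 54 was 0.46, and 0.25 without T1. Of the 7, 4 are among 16 tested target genes, 2 among 8 tested genes of receptor turnover and 1 among 6 tested genes of planar polarity; none was called among 2 secretion, 11 relay and 11 nuclear partner genes. *SNAI2*, a transcription factor of mesenchymal cells, stood at 33.0, 8.76, 3.85 and 7.99 FPKM in N1, N3, N8 and N9 and at 66.7, 45.6 and 85.2 FPKM in T1, T3 and T10, with no overlap (log2 fold change 2.56, SE 0.66). *TNFRSF11B*, the osteoclast inhibitor osteoprotegerin, stood at 0.804 to 2.05 FPKM in non-tumor samples and at 3.74, 9.25 and 32.3 FPKM in T1, T3 and T10, again with no overlap (log2 fold change 2.33). *WLS*, which carries Wnt proteins to the cell surface, also did not overlap, with 26.8 to 72.4 FPKM against 78.6 to 419 FPKM, but was not called (log2 fold change 1.51, SE 0.68). In the other direction, *BTRC*, a ubiquitin ligase subunit that binds β-catenin, had 5.99 to 7.74 FPKM in non-tumor samples and 2.22 to 5.49 FPKM in tumors, and *CELSR2*, a cadherin of planar polarity, had 0.228 to 3.52 FPKM and 0.0532 to 0.163 FPKM; neither was called. These 3 higher and 2 lower of the 54 stand beside 3.04% and 2.81% of all genes whose groups did not overlap.

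The other called genes of the wider pathway had N1 within the tumor range. *PTK7*, a co-receptor of planar polarity, had 59.1 FPKM in N1 and 1.74 to 3.65 FPKM in the other non-tumor samples, against 27.4, 57.5 and 138 FPKM in T1, T3 and T10 (log2 fold change 3.18). *BAMBI*, a decoy receptor for TGF-β family ligands, had 65.5 FPKM in N1 and 1.78 to 17.1 FPKM in the others, against 99.9, 181 and 44.6 FPKM (log2 fold change 3.202). *LGR4*, a receptor for R-spondins, *WISP1*, a secreted matricellular protein, and *DAAM2*, a formin, had log2 fold changes of 1.496, 2.81 and 1.75. Of the 7 fits that left out 1 sample, *BAMBI* was called in 6, *PTK7* in 5, *LGR4* in 3, and *WISP1* and *DAAM2* in 2 each. The textbook targets *MYC*, *CCND1* and *CD44* were not called, with log2 fold changes of -0.12, 1.72 and 0.96. Without N8 and N9, *SNAI2* alone of the 7 was still called, and without N1 the count was 14 of 54, where 14.8% of all genes were called. *MMP7* was listed at 0 in every sample.

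**Figure D5:**
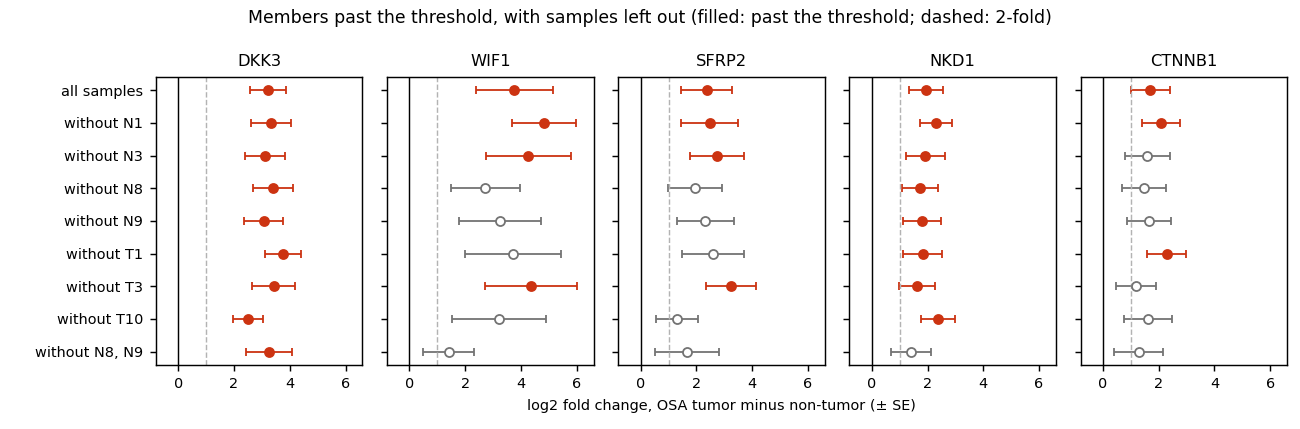
Points give the log2 fold change on the log2(FPKM + 1) scale with the limma standard error for the 5 called members, with all samples and with 1 sample, or N8 and N9 together, left out; filled red points are past the unadjusted threshold. *DKK3* is filled in every row, *NKD1* in all but the last, and *WIF1* falls to 1.41 without N8 and N9.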

How the data were processed

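RNA from 4 non-tumor bone and 3 OSA tumor samples was sequenced in pairs of reads from stranded libraries on an Illumina HiSeq. The authors used Trim Galore for trimming and TopHat for alignment to CanFam3.1, and deposited FPKM values per gene and sample made with Cufflinks and Cuffdiff; tool versions are not given in the sources used here. A second deposited table holds the authors' comparison (group FPKM, fold changes, test statistics, p and q), of which only gene positions were used. Values were analysed as log2(FPKM + 1) for the 13507 genes averaging 1 FPKM or more, with limma 3.58.1 (R 4.3.3, empirical Bayes with a mean-variance trend), tumor minus non-tumor; fold changes on this scale understate those of low genes. A gene was called at a fold change of at least 2 and an unadjusted p below 0.05, the limits of the study's methods, with Benjamini-Hochberg adjustment over all genes beside it. Single members were also compared by two-sided exact permutation over 35 splits. The limma fit was tested on simulated data with independent normal noise for each gene.

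Members named by rule were those called, those whose groups do not overlap at a mean of at least 1 FPKM, *DKK3* and *LEF1*, the 2 highest of each role, and any reaching 20 FPKM; these 20 members do not include those given for their role or their call under another setting, which were chosen after their values were seen. Among the other pathway genes, the called ones were named, and *WLS*, *BTRC*, *CELSR2*, *MYC*, *CCND1*, *CD44* and *MMP7* were added after their values were seen. The members, the lists and the rule were chosen with earlier results of these data known. Relative depth was read from the smallest FPKM steps; in 20 of 21 pairs of samples the ratio read directly was within 2% of that read through N1, which the 6 pairs that include N1 meet by construction, and in the pair N8 and T3 it was not. The planned search for TCF/LEF motifs was not run, because no promoter sequences were used here.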

Additional observations from a re-analysis of the deposited data

Results flagged for a closer look

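*RSPO2* in N3 stood apart from the other non-tumor samples. N3 had 3.199 FPKM, against 0.290 in N1, 0.365 in N8 and 0.110 in N9, and on the log2(FPKM + 1) scale the gap to the next sample was 0.845 of the group's whole range. The same comparison was made for 27 genes named in the report and marked this gene alone; by chance about 1 in 20 groups of 4 would be marked. The 3 OSA tumor samples were too few for it.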

How the results depend on the processing

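Over the 7 fits that left out 1 sample, the members called ranged from 2 to 10, with 2 to 10 higher and 0 to 1 lower, the other pathway genes called from 3 to 14 and all genes called from 319 to 1997. For the counts in both directions the lowest came without N8 and the highest without N1; all genes called also fell to 603 without T3 and 424 without T10, and the other pathway genes to 4 without T10. Without N8 and N9 together, a choice made after the data were seen, 2 members were called (1 higher, 1 lower), 1 other pathway gene and 184 genes in all, and *WNT5A* and *NKD2* turned to log2 fold changes of -0.36 and -0.46. Sample weights gave 9 members, all higher, 15 other pathway genes and 1857 genes in all. Among members near zero, *RSPO3* turned to -0.16 and -0.29 with pseudocounts of 0.1 and 0.01, and *SOST* to 0.063 with quantile normalization; with 1 sample left out the log2 fold changes ran from -0.50 to 1.34 for *RSPO3*, -1.35 to 0.84 for *SFRP4*, -1.42 to 0.79 for *SOST* and -1.54 to 1.97 for *NKD2*. The cause of these changes was not tested. Under the other pseudocounts, filters and scalings 5 or 6 members were called, all higher; *DKK3* was called in all 19 alternatives and *NKD1* in all but the fit without N8 and N9. No member had an adjusted p below 0.05 in any fit, the lowest being 0.105 for *DKK3* without N1; over all genes 3 passed after rescaling to the same sum and 1 without T1. 

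The TCF/LEF motif search was not run. The labels give number 1 and number 3 to a sample of each group but do not say that it marks a dog, and 2 shared numbers are too few to show a pairing. Deviations from the group means correlated at 0.42 for N1 and T1 and 0.21 for N3 and T3. With the number as a random replicate block, 7 members were called, 6 higher and 1 lower, of 1062 genes; *SFRP2* and *CTNNB1* were no longer called, at log2 fold changes of 1.79 and 1.53, *FZD1*, *FZD6*, *NOTUM* and *SFRP5* were, and *SOST* turned to 0.045. With a fixed replicate block over N1, N3, T1 and T3, 4 members were called, 3 higher and 1 lower, with 3 other pathway genes and 241 genes in all; *WIF1*, *SFRP2* and *CTNNB1* were no longer called, at log2 fold changes of 0.87, 0.59 and 1.19, and *SFRP4* and *SOST* turned to 0.78 and 0.51.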

Other observations

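Over all 13507 genes tested, 483 were called lower in tumor and 443 higher. Of 9 erythroid markers tested, 5 were called lower in tumor, with a summed FPKM of 38.2 to 5178 in non-tumor samples, highest in N8, and of 34.8 to 123 in tumors. Of 5 adipocyte markers, 4 were called lower, with sums of 30.5 to 286 FPKM in non-tumor samples and 14.3 to 49.4 FPKM in tumors. Of 4 osteocyte markers, *PDPN* was called higher, and the sums were 9.45 to 52.5 FPKM and 32.3 to 315 FPKM. No marker was called among 7 of T lymphocytes (2.76 to 82.3 FPKM and 4.24 to 19.4 FPKM) and 7 of B lymphocytes (13.3 to 207 FPKM and 19.3 to 28.3 FPKM); N3 held the highest sum of both. The part of these cells in the values of the Wnt genes was not tested.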
